A study of Mus musculus with 6 samples.

Results

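Transcripts of 34 genes of the tricarboxylic acid (TCA) cycle and of pyruvate entry into it were followed in wound tissue of diabetic mice. The genes were taken from a list written by enzyme role: pyruvate carrier, pyruvate dehydrogenase, its kinases and phosphatases, TCA cycle enzymes, cytosolic isoforms, anaplerosis and transamination. All 34 were found among the 33184 Ensembl gene IDs of the deposited table, and all 34 passed the filter on low values, which kept genes whose mean FPKM was 0.5 or more. FPKM is a fragment count scaled by gene length and by the total count of the library, so that levels of different genes can be compared per length.

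The mice were db/db animals (dbdb in the labels), which lack a working leptin receptor and become obese and diabetic, and this genotype was shared by every library. A round full-thickness skin wound of 6 mm was injected around its edge at dpi1 (1 day post-injury) with a control siRNA (NC-siRNA) or with SFRP2-siRNA, which targets the secreted Wnt modulator Sfrp2, and wound tissue was frozen at dpi4. The titles say D3 where the treatment text says dpi4, and the age and sex of the mice are not given. There were 3 libraries per group, called NC 1 to 3 and siRNA 1 to 3. It is not stated whether each library was 1 animal, so p-values measure the spread between libraries, which may in part be technical. The treated libraries carry the names of 3 different siRNA sequences, and whether each received its own sequence is not stated.

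The FPKM values implied 42.9 to 47.1 M counted reads per library (M, mega), and the members rested on 424 (Mpc1) to 49366 (Ogdh) reads in a library. Sfrp2, the siRNA target, stood at 11.6, 40.6 and 14.1 FPKM in NC 1 to 3 and at 50.6, 54.6 and 55.2 FPKM in siRNA 1 to 3. The group labelled SFRP2-siRNA thus held more of the target by 1.45 (SE 0.43) on the log2 scale, without overlap. The limma p of this difference was 0.0125 unadjusted and 0.518 adjusted. Each direction given for the members compares libraries by these labels, and the target's level goes against the labels. NC 1 stood apart in its mitochondrially encoded transcripts, which took 34.5% of its summed FPKM against 11.5% to 21.4% in the other libraries.

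Pyruvate made by glycolysis in the cytosol crosses the inner mitochondrial membrane through the mitochondrial pyruvate carrier. The pyruvate dehydrogenase complex (PDH) turns it into acetyl-CoA, and kinases switch the complex off by phosphorylation while phosphatases switch it on again. Citrate synthase joins acetyl-CoA to oxaloacetate, and the cycle then yields the NADH, FADH2 and GTP or ATP that feed respiration and synthesis. In wounds, resident skin cells, adipocytes, muscle and infiltrating immune cells all use this route, in proportions that bulk RNA does not separate.

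Most of the enzymes of pyruvate entry and of the mitochondrial cycle were lower in the libraries labelled SFRP2-siRNA. Of the 34 members, 28 had a log2 fold change below 0 and 6 above it, where 28.2% of all 16005 genes tested lay below 0. The median of the members was -0.665, and the median of all genes was 0.125. At an unadjusted limma p under 0.05, 20 members were lower, against 2.86% of all genes, and 0 members were higher, against 6.72% of all genes. The same 20 members had every siRNA library below every NC library, which was so for 3.92% of all genes. A log2 fold change below -0.5 was found for 21 members and for 4.44% of all genes. No member passed the adjusted threshold of 0.05, as 0% of all genes did, and the smallest adjusted p was 0.518 for members and for all genes alike, while 1533 genes had an unadjusted p under 0.05. In bulk tissue, fewer cells of a type and less RNA per cell cannot be told apart.

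The 20 lower members had siRNA means between 42.9% and 69.6% of their NC means. NC 1 was the highest library for 20 of these 20 genes. The lowest library was siRNA 2 for 15, siRNA 3 for 4 and siRNA 1 for 1 of them. Without NC 1, 20 members were again lower at an unadjusted limma p under 0.05, and the median of the 34 members was -0.49. As a median over all 34 members, NC 1, 2 and 3 lay at 0.30, -0.075 and -0.215 from the NC mean on the log2 scale, and siRNA 1, 2 and 3 at -0.51, -0.83 and -0.69. The order of the groups was thus the same without the library that stood apart, with a smaller distance between them.

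**Figure D1:**
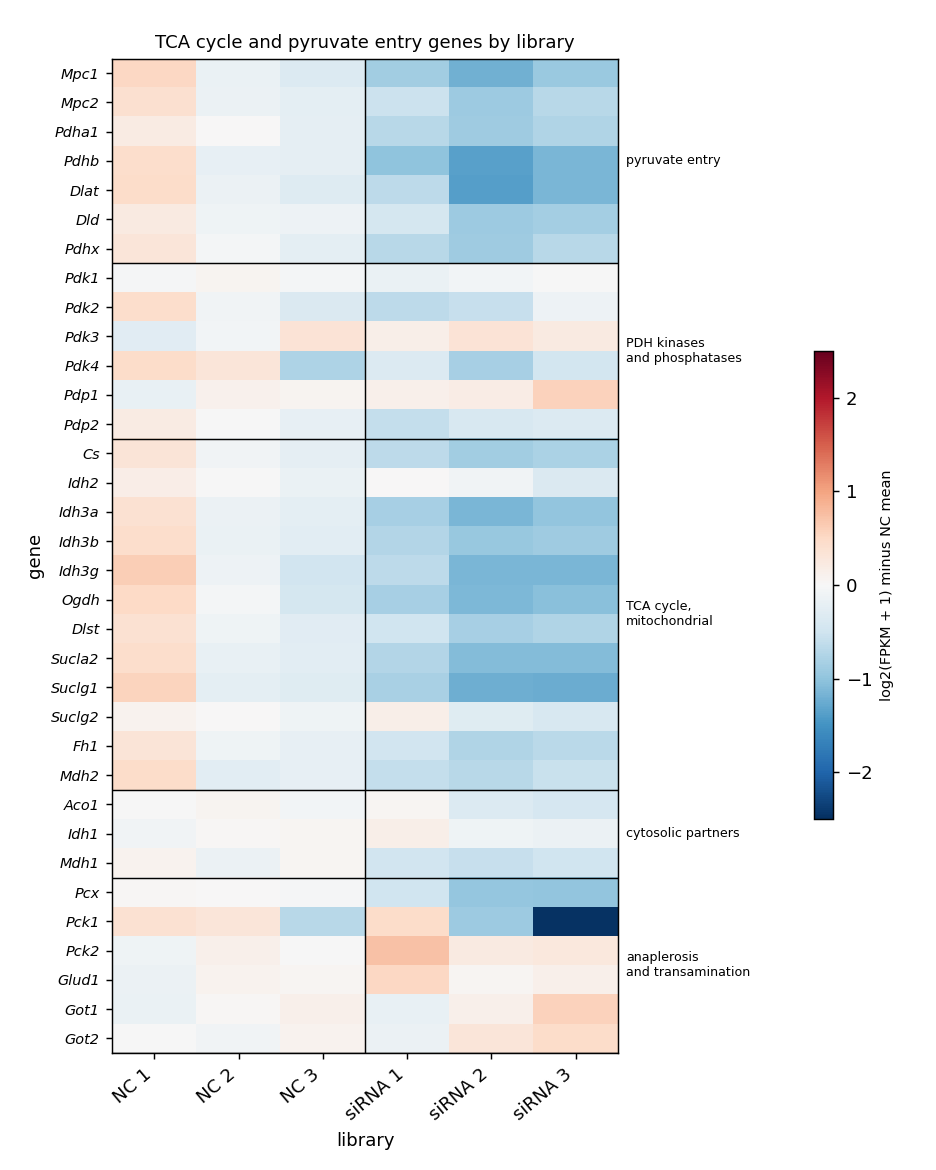
Level of each of the 34 genes (rows, grouped by role) in each of the 6 libraries (columns), as log2(FPKM + 1) minus the mean of the 3 NC libraries, with blue for lower and red for higher. Pyruvate entry and most mitochondrial cycle genes are blue in siRNA 1 to 3 and pale or red in NC 1 to 3. Got1, Got2, Glud1 and Pck2 are not lower in the siRNA group. Pck1 varies widely within that group, from slightly above the NC mean in siRNA 1 to far below it in siRNA 3.

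Pyruvate entry was the role group in which every member was lower without overlap, against 3.92% of all genes. All 7 genes had groups that did not overlap, with log2 fold changes from -1.17 to -0.72 and a median of -0.77. Mpc1 (ENSMUSG00000023861), which pairs with Mpc2 to form the carrier, stood at 17.05, 10.25 and 9.05 FPKM in NC 1 to 3 and at 5.94, 4.50 and 5.65 FPKM in siRNA 1 to 3. Every siRNA library lay below every NC library, with a log2 fold change of -1.003 (SE 0.24) and an unadjusted limma p of 0.00436. Mpc2 differed by -0.72 (SE 0.21) on the log2 scale, from 7.70 to 12.7 FPKM in NC against 4.48 to 6.13 FPKM in siRNA libraries. A gene on the opposite strand shares 23.1% of the exon bases of Mpc1, and whether reads were assigned by strand is not stated.

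The E1 subunits of PDH, which decarboxylate pyruvate, were both lower. Pdhb (ENSMUSG00000021748), the beta subunit, stood at 122.9, 78.5 and 77.2 FPKM in NC 1 to 3 and at 44.55, 34.6 and 40.5 FPKM in siRNA 1 to 3. All 3 siRNA libraries were well below the NC libraries, and the mean went from 92.9 ± 26.0 to 39.9 ± 4.99 FPKM (SD, n = 3 each). Its log2 fold change of -1.17 (SE 0.225) was the lowest of the 34 members, with an unadjusted limma p of 0.00136. Pdha1 (ENSMUSG00000031299), the X-linked alpha subunit that carries the phosphorylation sites, stood at 109.5, 94.8 and 80.6 FPKM in NC and at 57.8, 50.5 and 55.9 FPKM in siRNA libraries. An opposite-strand gene shares 16.1% of the exon bases of Pdha1. The groups were again apart, with a log2 fold change of -0.77 (SE 0.17) and an unadjusted limma p of 0.00274. The ratio of Pdhb to Pdha1 FPKM lay at 1.12, 0.828 and 0.959 in NC and at 0.770, 0.685 and 0.724 in siRNA libraries. This ratio was picked after its values were seen and is given without a test.

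The remaining PDH subunits followed the same direction. Dlat, the E2 acetyltransferase that forms the core, ranged from 33.7 to 58.1 FPKM in NC and from 15.7 to 26.3 FPKM in siRNA libraries, a log2 fold change of -1.05 (SE 0.27). Dld, the E3 dehydrogenase that PDH shares with the 2-oxoglutarate and branched-chain dehydrogenases, stood at 71.0, 56.7 and 56.0 FPKM in NC and at 44.35, 32.1 and 33.25 FPKM in siRNA libraries. Its siRNA mean was 59.7% of the NC mean, the highest share among the PDH subunits. Pdhx, which tethers E3 to the core, stood at 20.6, 16.0 and 13.8 FPKM in NC and at 9.85, 8.53 and 9.84 FPKM in siRNA libraries. The groups of Dlat, Dld and Pdhx did not overlap, and their unadjusted limma p were 0.00594, 0.00586 and 0.00313.

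Because these genes were lower together, the bases before their starts were examined for motifs of factors known to act on housekeeping and mitochondrial promoters. RefSeq windows of mouse build GRCm38.p6, from 250 bases before to 50 bases after the start, were at hand for 32 of the 34 members. Both strands were searched, and the share of all genes with a window that hold a motif is given for comparison. These were 27025 genes and were not limited to the 16005 genes tested here. The Sp1 motif GGGCGG was in 23 of the 32 members (71.9%) and in 38.2% of all genes. The ETS motif CCGGAAG was in 5 of 32 members (15.6%) and in 9.93% of all genes. The NRF1 motif, GCGCA and GCGC with any 1 base between them, was in Dld and Sucla2, 2 of 32 members, and in 5.19% of all genes. The estrogen-related receptor motif TNAAGGTCA was in 0 of 32 members and in 1.43% of all genes. Of the lower members with a window, 14 of 19 held the Sp1 motif, and of the other members 9 of 13 did. A match describes letters in a window and not a site that is bound. The 250 bases before the start are printed 5′ to 3′ on the gene's strand, with motif matches in capitals. Pdhb and Pdha1 are shown as subunits of 1 enzyme of which the former holds 2 Sp1 matches and the latter none of the 4 motifs. Sucla2 is shown for its Sp1 and NRF1 matches and Idh3g for its ETS match. Pdhb lies at chr14:8172993-8173242 and Pdha1 at chrX:160138431-160138680, both on the minus strand, Sucla2 at chr14:73552536-73552785 on the plus strand and Idh3g at chrX:73786898-73787147 on the minus strand.
Pdhb: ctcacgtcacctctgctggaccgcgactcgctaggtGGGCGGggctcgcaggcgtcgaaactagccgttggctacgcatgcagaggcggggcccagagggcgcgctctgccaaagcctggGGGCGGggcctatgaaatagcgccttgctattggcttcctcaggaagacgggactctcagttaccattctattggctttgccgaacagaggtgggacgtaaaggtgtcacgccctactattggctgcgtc
Pdha1: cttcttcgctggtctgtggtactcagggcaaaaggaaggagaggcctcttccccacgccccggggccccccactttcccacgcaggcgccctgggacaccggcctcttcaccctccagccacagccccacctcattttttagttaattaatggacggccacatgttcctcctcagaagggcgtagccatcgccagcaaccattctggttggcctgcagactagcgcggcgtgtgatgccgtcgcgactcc
Sucla2: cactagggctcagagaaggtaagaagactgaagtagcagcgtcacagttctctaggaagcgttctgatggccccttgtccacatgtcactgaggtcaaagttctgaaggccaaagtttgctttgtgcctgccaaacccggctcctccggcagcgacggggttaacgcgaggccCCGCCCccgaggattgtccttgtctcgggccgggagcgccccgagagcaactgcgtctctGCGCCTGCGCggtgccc
Idh3g: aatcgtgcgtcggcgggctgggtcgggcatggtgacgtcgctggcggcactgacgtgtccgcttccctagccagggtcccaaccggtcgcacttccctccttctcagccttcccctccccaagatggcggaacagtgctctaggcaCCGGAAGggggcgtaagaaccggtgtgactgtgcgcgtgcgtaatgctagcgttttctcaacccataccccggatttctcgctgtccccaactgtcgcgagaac

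Of the 6 kinases and phosphatases of PDH, 1 was lower and 1 higher without overlap, against 3.92% and 13.9% of all genes. Groups overlapped for 4 of them. At an unadjusted limma p under 0.05, 1 was lower, against 2.86% of all genes, and the median log2 fold change was -0.26. Pdk1, a kinase induced under low oxygen, stood at 9.39, 10.06 and 9.28 FPKM in NC and at 8.36, 9.15 and 9.465 FPKM in siRNA libraries. Those values overlapped, with a log2 fold change of -0.08 (SE 0.115). Pdk2, the most widely expressed kinase, stood at 45.6, 31.1 and 25.6 FPKM in NC and at 20.8, 21.9 and 30.4 FPKM in siRNA libraries. Library siRNA 3 lay among the NC libraries. The log2 fold change was -0.45 (SE 0.25), with a limma p of 0.118 unadjusted and 0.536 adjusted. It was -0.22 without NC 1. Pdk3 stood at 6.125, 7.23 and 9.94 FPKM in NC and at 8.51, 9.86 and 9.09 FPKM in siRNA libraries, which overlapped.

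Pdk4, the kinase raised by fasting and by fatty acids, was the most abundant of the 4 kinases per length. It stood at 82.7, 74.0 and 34.5 FPKM in NC and at 47.1, 33.2 and 43.2 FPKM in siRNA libraries. NC 3 lay within the range of the siRNA group. The log2 fold change of -0.54 (SE 0.34) had a limma p of 0.162 unadjusted and 0.56 adjusted. It was -0.31 without NC 1 and -0.92 without NC 3, the latter with an unadjusted limma p of 0.0051. Pdp1, the calcium-stimulated phosphatase, stood at 3.26, 4.16 and 4.08 FPKM in NC and at 4.23, 4.51 and 6.20 FPKM in siRNA libraries. It was 1 of 2 members with every siRNA library above every NC library, which 13.9% of all genes showed, and its log2 fold change was 0.30 (SE 0.165), or 0.16 without siRNA 3. Pdp2, the other phosphatase, stood at 4.35, 3.58 and 3.03 FPKM in NC and at 2.06, 2.48 and 2.66 FPKM in siRNA libraries. The groups did not overlap, in the direction opposite to Pdp1, with a log2 fold change of -0.45 (SE 0.15) and an unadjusted limma p of 0.0207.

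The ratio of Pdk4 to Pdk1, kinases that respond to different cues, lay at 8.81, 7.36 and 3.72 in NC and at 5.64, 3.63 and 4.56 in siRNA libraries. The groups overlapped, and the log2 difference of -0.455 (SE 0.41) had an exact permutation p of 0.3. It was -0.21 without NC 1, -0.30 without siRNA 2 and -0.82 without NC 3. This was 1 of 8 ratios tested on log2(FPKM + 1), and 3 against 3 libraries cannot give an exact two-sided p below 0.1.

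Of the 12 enzymes of the cycle inside mitochondria, 10 were lower with groups that did not overlap, against 3.92% of all genes. The exceptions were Idh2 and Suclg2. The median log2 fold change of the 12 was -0.81. Cs (ENSMUSG00000005683), citrate synthase, which starts the cycle, stood at 177.8, 134.4 and 122.1 FPKM in NC and at 90.55, 77.7 and 82.4 FPKM in siRNA libraries. All siRNA libraries were below the lowest NC library, with means of 144.8 ± 29.3 and 83.55 ± 6.51 FPKM (SD, n = 3 each). The log2 fold change was -0.77 (SE 0.19), with an unadjusted limma p of 0.00565.

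The enzymes that turn isocitrate into 2-oxoglutarate were split. Idh3a (ENSMUSG00000032279), the catalytic subunit of the NAD-dependent enzyme, stood at 94.9, 65.1 and 60.85 FPKM in NC and at 40.45, 32.1 and 35.9 FPKM in siRNA libraries, a log2 fold change of -0.98 (SE 0.21). Its partners Idh3b and Idh3g differed by -0.86 (SE 0.22) and -0.98 (SE 0.31), also without overlap. Idh2, the NADP-dependent mitochondrial enzyme, stood at 74.5, 65.3 and 59.05 FPKM in NC and at 66.7, 61.7 and 51.3 FPKM in siRNA libraries. These overlapped, and the log2 fold change was -0.15 (SE 0.17) with a limma p of 0.421 unadjusted and 0.698 adjusted. The FPKM ratio of Idh3a to Idh2 lay at 1.27, 0.997 and 1.03 in NC and at 0.607, 0.521 and 0.700 in siRNA libraries. This ratio was also picked after its values were seen, and no test is given.

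At the 2-oxoglutarate dehydrogenase step, Ogdh, the E1 subunit, ranged from 106.8 to 205.1 FPKM in NC and from 65.8 to 81.2 FPKM in siRNA libraries, a log2 fold change of -1.005 (SE 0.26). Dlst, its E2 subunit, differed by -0.70 (SE 0.21), with 37.8 to 60.1 FPKM in NC and 25.5 to 32.1 FPKM in siRNA libraries. Both were without overlap, as was Dld, the E3 subunit given above.

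Succinyl-CoA ligase has a shared alpha subunit, Suclg1, and either an ATP-forming beta subunit, Sucla2, or a GTP-forming one, Suclg2. Suclg1 (ENSMUSG00000052738) stood at 71.7, 40.95 and 39.1 FPKM in NC and at 27.4, 20.3 and 20.03 FPKM in siRNA libraries, with a log2 fold change of -1.09 (SE 0.27). Sucla2 (ENSMUSG00000022110) stood at 103.3, 66.3 and 62.6 FPKM in NC and at 44.9, 35.1 and 34.8 FPKM in siRNA libraries, with a log2 fold change of -0.97 (SE 0.23). Both were without overlap between groups. Suclg2 stood at 12.01, 11.3 and 10.4 FPKM in NC and at 12.5, 8.96 and 8.25 FPKM in siRNA libraries, where siRNA 1 was the highest of all 6. Its log2 fold change was -0.18 (SE 0.17), with a limma p of 0.328 unadjusted and 0.645 adjusted. The ratio of Sucla2 to Suclg2 thus went from 8.60, 5.87 and 6.04 in NC to 3.59, 3.92 and 4.22 in siRNA libraries. The groups did not overlap, and the log2 difference of -0.79 (SE 0.19) had the smallest exact permutation p that the design allows, 0.1, and 0.4 after adjustment over the 8 ratios.

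The last steps of the cycle were lower as well. Fh1, fumarase, ranged from 39.6 to 57.3 FPKM in NC and from 26.9 to 32.7 FPKM in siRNA libraries, a log2 fold change of -0.63 (SE 0.18). Mdh2, mitochondrial malate dehydrogenase, had the highest NC mean of the members per length, 154.0 ± 46.0 FPKM (SD, n = 3), though within the spread of Ogdh at 150.7 ± 49.97 FPKM and Cs. It stood at 207.0, 124.5 and 130.6 FPKM in NC and at 98.95, 92.3 and 102.1 FPKM in siRNA libraries. Its siRNA libraries all lay below its NC libraries, and the log2 fold change of -0.61 (SE 0.23) had an unadjusted limma p of 0.0336. It was -0.38 without NC 1, and its unadjusted limma p was 0.0565 to 0.0928 without any 1 of the siRNA libraries.

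**Figure D2:**
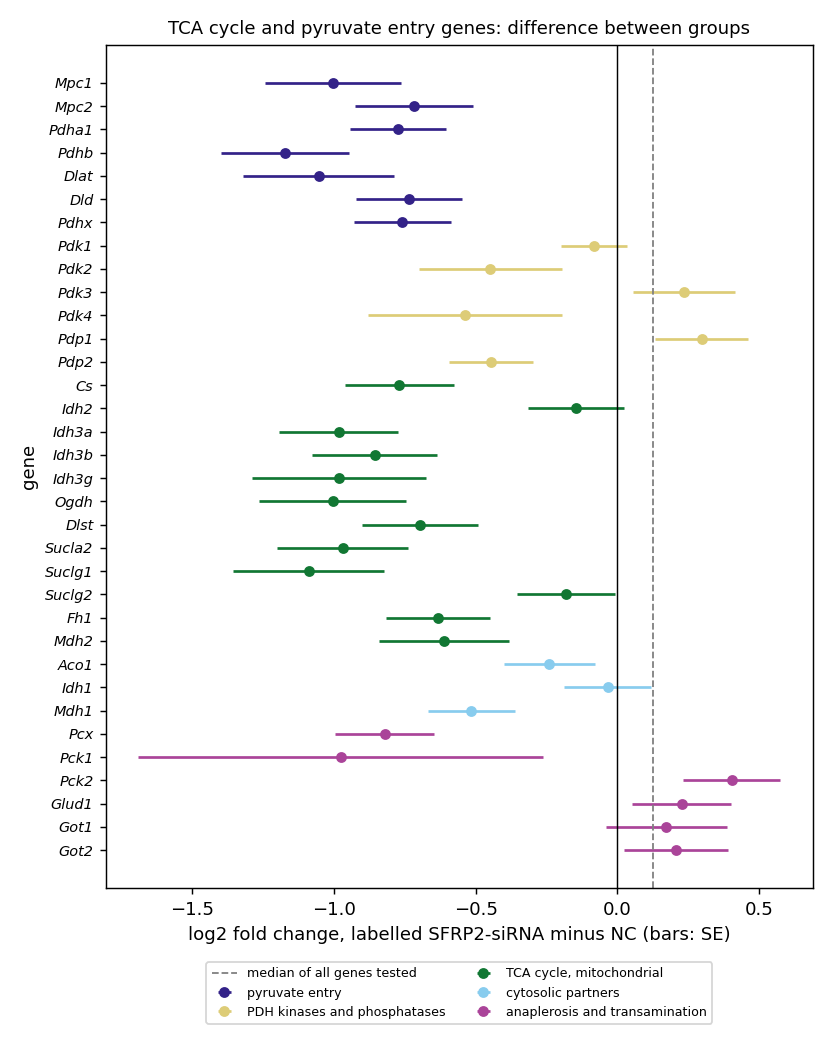
Log2 fold change of each of the 34 genes (libraries labelled SFRP2-siRNA minus NC, on log2(FPKM + 1)), with points coloured by role and horizontal bars for the standard error of the limma fit; the dashed line marks the median of all genes tested, 0.125. Pyruvate entry genes lie between -1.17 and -0.72, and Idh2, Suclg2, Idh1 and Pdk1 lie near 0.

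Of the 3 cytosolic isoforms, 1 was lower without overlap, against 3.92% of all genes, and 2 overlapped between the groups. Aco1, the cytosolic aconitase that doubles as an iron sensor, stood at 21.1, 22.4 and 20.1 FPKM in NC and at 21.9, 16.5 and 15.5 FPKM in siRNA libraries, which overlapped. Idh1, the cytosolic source of NADPH from isocitrate, stood at 68.9, 74.9 and 75.4 FPKM in NC and at 81.1, 68.2 and 65.5 FPKM in siRNA libraries, with a log2 fold change of -0.035 (SE 0.15). Mdh1, the cytosolic malate dehydrogenase of the malate-aspartate shuttle, was the lower one. It stood at 147.6, 125.1 and 142.6 FPKM in NC and at 98.45, 92.8 and 97.7 FPKM in siRNA libraries, a log2 fold change of -0.52 (SE 0.15) without overlap.

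Ratios of mitochondrial to cytosolic transcripts overlapped between the groups for malate and isocitrate dehydrogenase. The ratio of Mdh2 to Mdh1 lay at 1.40, 0.995 and 0.916 in NC and at 1.005, 0.995 and 1.05 in siRNA libraries, a log2 difference of -0.10 (SE 0.19) with an exact permutation p of 0.9. NC 1 held the highest ratio, and the other 5 libraries lay between 0.916 and 1.05. The ratio of Idh2 to Idh1 lay at 1.08, 0.871 and 0.783 in NC and at 0.822, 0.906 and 0.783 in siRNA libraries, a log2 difference of -0.11 (SE 0.15) with an exact permutation p of 0.7. The groups overlapped in both ratios.

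Anaplerosis refills the cycle, and transamination links it to amino acids. Of 6 such members, 1 was lower and 1 higher without overlap, against 3.92% and 13.9% of all genes. Groups overlapped for 4, and the median log2 fold change was 0.19. Pcx (ENSMUSG00000024892), pyruvate carboxylase, which makes oxaloacetate from pyruvate, stood at 66.15, 65.3 and 64.1 FPKM in NC and at 45.6, 32.7 and 32.4 FPKM in siRNA libraries. The NC libraries were nearly equal, NC 1 included, and all siRNA libraries were lower, with a log2 fold change of -0.82 (SE 0.17) and an unadjusted limma p of 0.00233. The ratio of Pcx to Pdha1, the competing routes for pyruvate, lay at 0.604, 0.689 and 0.795 in NC and at 0.789, 0.648 and 0.579 in siRNA libraries. It overlapped, with a log2 difference of -0.05 (SE 0.17) and an exact permutation p of 0.7.

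Phosphoenolpyruvate carboxykinase draws oxaloacetate out of the cycle, with Pck1 in the cytosol and Pck2 in mitochondria. Pck1, which adipocytes use for glyceroneogenesis, stood at 103.1, 97.8 and 48.2 FPKM in NC and at 108.2, 41.5 and 13.3 FPKM in siRNA libraries. It was the most variable member within the siRNA group, where siRNA 1 was above every NC library and siRNA 3 below them. Its log2 fold change of -0.98 (SE 0.715) had a limma p of 0.216 unadjusted and 0.585 adjusted. Without siRNA 1 the value was -1.69, with an unadjusted limma p of 0.012, and without siRNA 3 it was -0.23. Pck2, an amino acid stress target in many cells, stood at 2.23, 2.81 and 2.44 FPKM in NC and at 4.80, 3.05 and 3.17 FPKM in siRNA libraries. With Pdp1 it was the other member higher without overlap, and its log2 fold change of 0.40 (SE 0.17) had an unadjusted limma p of 0.0522 and was 0.24 without siRNA 1. The ratio of Pck2 to Pck1 lay at 0.0217, 0.0287 and 0.0507 in NC and at 0.0444, 0.0736 and 0.238 in siRNA libraries, which overlapped, and its exact permutation p was 0.2. Its log2 difference was 1.38 (SE 0.80), and 0.70 without siRNA 3.

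Enzymes of glutamate and aspartate had siRNA means above their NC means, within the spread of the libraries. Glud1, glutamate dehydrogenase, stood between 34.1 and 40.3 FPKM in NC and between 38.75 and 54.2 FPKM in siRNA libraries. Got1, the cytosolic aspartate aminotransferase, stood at 22.1, 25.45 and 27.15 FPKM in NC and at 21.6, 27.3 and 37.3 FPKM in siRNA libraries. Got2, its mitochondrial isoform, which shares 9.0% of its exon bases with an opposite-strand gene, stood at 27.4, 26.0 and 29.5 FPKM in NC and at 24.9, 34.4 and 38.1 FPKM in siRNA libraries. Log2 fold changes of the 3 genes were 0.23 (SE 0.17), 0.17 (SE 0.21) and 0.21 (SE 0.18), all with overlapping groups. Their limma p were 0.233 to 0.45 unadjusted and 0.594 to 0.715 adjusted. The median of all genes was 0.125, and with median-of-ratios scaling the 3 values were 0.072, 0.018 and 0.052. The ratio of Got2 to Got1 lay between 1.02 and 1.24 in NC and between 1.02 and 1.26 in siRNA libraries, with an exact permutation p of 0.8.

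**Figure D3:**
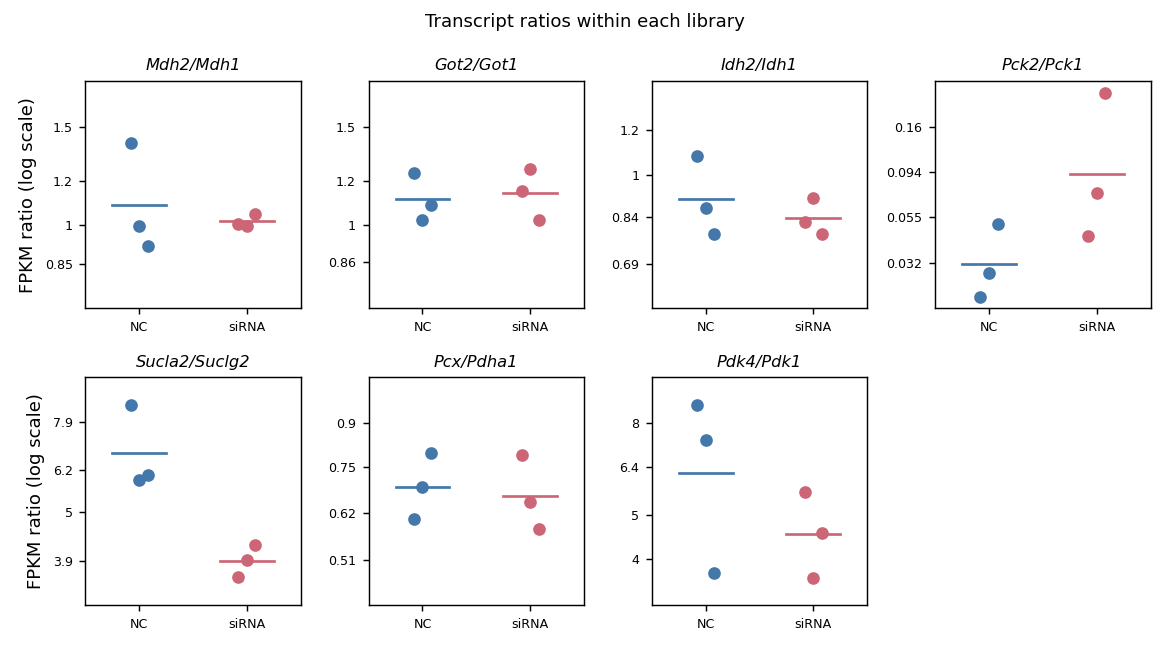
FPKM ratios of 7 gene pairs in each library (points, log scale), by group, with a line at the geometric mean of the 3 libraries. The groups are apart for Sucla2/Suclg2, where NC lies at 5.87 to 8.60 and siRNA at 3.59 to 4.22, and they overlap in the other 6.

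Genes next to the 34 were counted from 6 further lists at an unadjusted limma p under 0.05, where 2.86% of all genes were lower and 6.72% higher. Of 8 reported genes for succinate dehydrogenase and its assembly, 3 were lower, the subunits Sdha at -0.84 (SE 0.19), Sdhb at -0.76 (SE 0.27) and Sdhd at -0.49 (SE 0.21) on the log2 scale. The subunit Sdhc was lower without overlap at -0.46 (SE 0.22), with an unadjusted limma p of 0.0733. Sdha, the flavoprotein of succinate dehydrogenase, stood at 189.1, 170.5 and 133.5 FPKM in NC and at 102.3, 85.8 and 84.9 FPKM in siRNA libraries. Of 7 genes of citrate export, acetyl-CoA supply and lipogenic NADPH or fatty acid synthesis, 7 were lower, with a median of -1.38. They include Acly, which cleaves citrate, at -1.76 (SE 0.26), and malic enzyme Me1 at -1.36 (SE 0.18). This median lies below the -0.81 of the mitochondrial cycle enzymes, and the difference between the lists was not tested.

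Other neighbours were mixed. Of 10 reported genes of redox shuttles and glutamine entry, 2 were lower, the glycerol phosphate shuttle enzymes Gpd1 at -2.06 (SE 0.42) and Gpd2 at -1.86 (SE 0.40). Of 13 tested genes of lipoate supply, regulation and side reactions, 2 were lower, Mecr at -1.02 (SE 0.265) and Adhfe1 at -0.74 (SE 0.26), and 1 was higher, Me2 at 0.32 (SE 0.12). Mecr acts in mitochondrial fatty acid synthesis, which supplies the lipoate that Dlat and Dlst carry. Acod1, which makes itaconate from cis-aconitate in activated macrophages, stood at 35.1, 35.8 and 16.0 FPKM in NC and at 71.0, 97.3 and 14.2 FPKM in siRNA libraries, and so overlapped.

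At the lactate step, Ldha, which favours lactate formation, stood at 357.6, 370.4 and 378.0 FPKM in NC and at 371.4, 348.1 and 369.0 FPKM in siRNA libraries. Its groups overlapped, with a log2 fold change of -0.02 (SE 0.18). Ldhb, the isoform of oxidative tissue, stood at 180.6, 103.4 and 95.4 FPKM in NC and at 60.2, 68.7 and 58.5 FPKM in siRNA libraries, a log2 fold change of -0.95 (SE 0.26). Slc16a3, the lactate exporter MCT4, stood at 9.75, 12.1 and 9.35 FPKM in NC and at 22.4, 24.4 and 15.5 FPKM in siRNA libraries, a log2 fold change of 0.92 (SE 0.20). Ldhb was lower and Slc16a3 higher without overlap. Of 10 transcription regulators of mitochondrial genes, 2 were lower, against 2.86% of all genes, Ppara at -0.73 (SE 0.23) and Ppargc1b at -0.44 (SE 0.14), with Pparg at -0.83 (SE 0.36) and an unadjusted limma p of 0.0548. Every gene named from these lists had an adjusted limma p of at least 0.518.

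Markers of 9 cell types were summed in each library, and the sums of most lists overlapped between the groups. The 6 brown fat markers summed to 2164, 1206 and 748.4 FPKM in NC 1 to 3 and to 479.4, 226.0 and 206.7 FPKM in siRNA 1 to 3. Of these 6 markers, 4 were lower without overlap, against 3.92% of all genes. Dio2 and Elovl3 overlapped, with log2 fold changes of -0.465 (SE 0.21) and -0.065 (SE 0.20). Ucp1, the defining gene of thermogenic fat, stood at 1061, 615.4 and 314.5 FPKM in NC and at 156.6, 39.9 and 19.1 FPKM in siRNA libraries. The order of the 6 libraries by brown fat markers was the order by the mitochondrial cycle genes but for siRNA 2 and siRNA 3, which changed places. By the sum of mitochondrially encoded transcripts, the order was that of the mitochondrial cycle genes in all 6 libraries. In each of these measures every NC library lay above every siRNA library, which fixes part of the order.

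The 13 mitochondrially encoded transcripts summed to 62120 to 152200 FPKM in NC and to 42950 to 57040 FPKM in siRNA libraries. Of these 13, 9 were lower without overlap, against 3.92% of all genes. Sums of 13 adipocyte markers overlapped, at 2850 to 3974 FPKM in NC and 1253 to 3185 FPKM in siRNA libraries. Of these, 2 of 13 were lower without overlap, against the same 3.92%. Sums of 11 skeletal muscle markers also overlapped, at 3679 to 7410 FPKM in NC and 4932 to 13840 FPKM in siRNA libraries. Of adipocyte and muscle markers, neither sum was apart between the groups.

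Marker sums of 2 cell types were higher without overlap. Sums of 12 macrophage markers were 1086 to 1745 FPKM in NC and 1947 to 2597 FPKM in siRNA libraries, with 4 of 12 higher without overlap, against 13.9% of all genes. Sums of 10 fibroblast markers were 930.3 to 2002 FPKM in NC and 2212 to 2325 FPKM in siRNA libraries, with 7 of 10 higher without overlap, against the same 13.9%. Sums of 10 keratinocyte markers (4050 to 6867 against 3745 to 7055 FPKM), 8 sebaceous gland markers (238.2 to 318.3 against 232.3 to 358.0 FPKM), 8 neutrophil markers (1148 to 1774 against 997.3 to 5563 FPKM) and 7 endothelial markers (51.6 to 80.15 against 52.7 to 89.4 FPKM) overlapped, in NC against siRNA libraries. Though their sums overlapped, all 8 neutrophil and all 11 skeletal muscle markers had log2 fold changes above 0, with medians of 0.81 and 0.655. The median of all genes was 0.125. No marker was below 0.1 FPKM in all libraries. The part of any of these cell types in the lower levels of the TCA cycle genes was not tested.

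**Figure D4:**
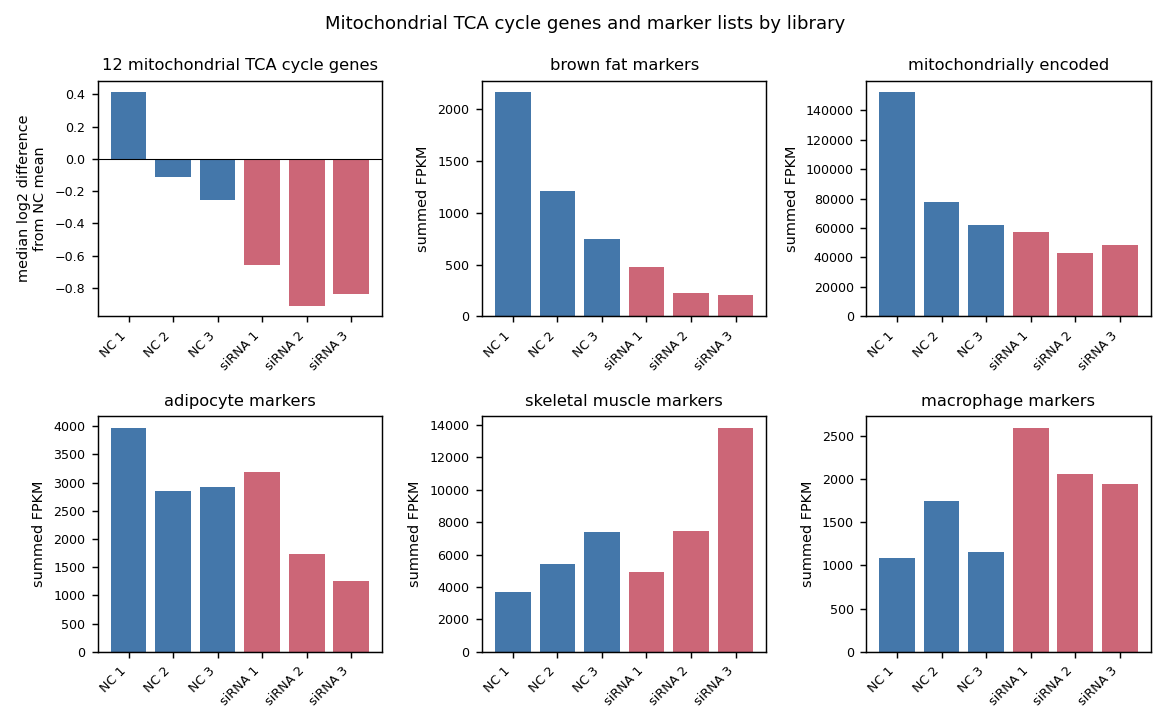
The median log2 difference of the 12 mitochondrial TCA cycle genes from the NC mean (first panel) and the summed FPKM of 5 marker lists (other panels) in each library, with NC in blue and siRNA in red. Brown fat and mitochondrially encoded sums are highest in NC 1 and lower in every siRNA library than in every NC library, as the TCA cycle genes are, macrophage sums are higher in the siRNA group, and adipocyte and skeletal muscle sums overlap between groups.

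Scaling shifted the members and all genes alike. With FPKM as deposited, 2.86% of all genes were lower and 6.72% higher at an unadjusted p under 0.05, while with median-of-ratios scaling 4.69% were lower and 2.73% higher, and 20 members were lower under either. The median of all genes was 0.125 as deposited and 0.004 with median-of-ratios scaling, and the median of the members lay at -0.79 and -0.825 relative to it. Rescaled to equal sums, 18 members were lower at that threshold.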

How the data were processed

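RNA was measured by paired-end mRNA-seq in 6 wound libraries, grouped by their labels. The submitters' processing notes name HISAT2, featureCounts and Subread without versions, and the genome build is not given in the sources used here. The authors deposited 1 table of FPKM per gene, not counts, and used DESeq2 for their own tests, which FPKM cannot enter. Of 33184 gene IDs, 32582 matched a symbol. Values were analysed as log2(FPKM + 1), which understates changes of low genes, for the 16005 genes whose mean reached 0.5 FPKM, with limma 3.58.1 in R 4.3.3 (intensity trend, two-sided, Benjamini-Hochberg over all genes kept). Ratios used a two-sided exact permutation test, adjusted over 8 ratios. Of these, 1 ratio is not reported here, nor are 2 genes of the neighbouring lists, which their counts leave out. Fold changes are SFRP2-siRNA minus NC. With GENCODE vM21 lengths, FPKM gave whole reads (tolerance 0.02 reads) in every library for 98.91% of genes with a length, and all 34 members. Libraries of a group differed beyond sampling noise.

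Values in every library were given for members in the 8 ratios, PDH kinases and phosphatases, and the 10 members with the smallest unadjusted p. Of other lists, up to 3 genes with the smallest p plus Sdha, Sdhb, Sdhc, Acod1, Ldha, Ldhb and Me1 were named. Many of these are given by log2 fold change and SE alone. The members and lists were chosen with earlier results of these data known. As alternatives, the pseudocount was set to 0.1, the filter was dropped or raised to 2 FPKM, and 4 scalings, no trend, sample weights, a replicate block and the omission of each library were tried. Voom on reads recovered from FPKM was added after seeing the data.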

Additional observations from a re-analysis of the deposited data

How the results depend on the processing

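Of 578 alternative fits of single members, 574 kept their direction and 4 turned it, in 3 members that had not passed the unadjusted threshold: Pdk1 (0.002) and Idh1 (0.059) on the log2 scale when rescaled to equal sums, which moved the median of all genes from 0.125 to 0.196, and Idh1 (0.025) and Got1 (-0.027) without SFRP2-siRNA replicate 3. Of 64 alternative ratio values, 6 turned: Mdh2/Mdh1 (0.087) and Idh2/Idh1 (0.017) without NC replicate 1, Got2/Got1 without NC replicate 2 (-0.024) and without SFRP2-siRNA replicate 2 (-0.035), and Pcx/Pdha1 without NC replicate 3 (0.052) and without SFRP2-siRNA replicate 3 (0.051). Over the fits without 1 library, the ranges were -0.218 to 0.087 for Mdh2/Mdh1, -0.035 to 0.111 for Got2/Got1, -0.213 to 0.017 for Idh2/Idh1, -0.165 to 0.052 for Pcx/Pdha1, -0.127 to 0.025 for Idh1 and -0.027 to 0.352 for Got1. Leaving out 1 library gave 17 to 21 lower members at the unadjusted threshold and a median of -0.81 to -0.49. Members higher at that threshold numbered 0 or 1 in each alternative. Of the 20 lower members, 17 kept an unadjusted p under 0.05 in every alternative, and the exceptions were Mdh2, Mdh1 and Pdp2. No gene passed the adjusted threshold in any alternative, and the smallest adjusted p was 0.119, with sample weights. Of all genes, 887 had an unadjusted p under 0.05 without NC replicate 1 and 947 without SFRP2-siRNA replicate 2, against 1533.

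Deviations of same-numbered libraries correlated at -0.05, -0.15 and 0.38 for numbers 1 to 3, not above 0.1 in every pair, so the numbers were not taken to pair them. With the replicate block, 20 members were lower, with a median of -0.665 and a smallest adjusted p of 0.209, and it changed no call at the adjusted threshold. Every member had at least 424 reads in every library.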

Other observations

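Nnt, the mitochondrial transhydrogenase that makes NADPH from the NADH of the cycle, was the gene of the 6 neighbouring lists that did not pass the filter, at 0 to 0.0387 FPKM over the 6 libraries. Me2 was higher in the libraries labelled SFRP2-siRNA at 2.86, 3.64 and 3.48 FPKM in NC against 4.34, 4.21 and 4.63 FPKM, while Me3 overlapped at 0.797 to 1.42 against 0.714 to 1.06 FPKM. Hif1a overlapped as well, at 16.9 to 32.0 FPKM in NC and 22.6 to 38.8 FPKM in siRNA libraries.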
